A study of Homo sapiens with 6 samples.

Results

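Of the 39739 gene rows listed for each RNA-seq library of HGC27 cells, 10 rows are described here, those of a chosen set of transcription factors and splicing regulators of the epithelial state. They are the splicing regulators *ESRP1* and *ESRP2*, the Grainyhead-like factors *GRHL1* and *GRHL2*, the OVO-like zinc finger factors *OVOL1* and *OVOL2*, the ETS factors *ELF3* and *EHF*, and the Krüppel-like factors *KLF4* and *KLF5*. The genes were chosen by name and matched exactly to the gene names of the tables, and all 10 had a row. HGC27 is an established human gastric cancer cell line, grown here in RPMI-1640 with fetal bovine serum. The study asked which transcripts change when the 3′-untranslated region of *FN1*, the fibronectin gene, is overexpressed. The 3 HGC27-FN1 3′-UTR libraries came from cells that carry this region stably after lentiviral transfer and puromycin selection, and the 3 HGC27-control libraries came from control cells of the same line. How the control cells were made, and whether each line was a pool or a clone, was not given in the sources used here. The labels number the replicates but do not say that they were separate cultures, so the p-values measure the spread between these libraries, which may be technical.

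ESRP1 and ESRP2 bind GU-rich sequence in pre-mRNA and set the inclusion of epithelial exons in transcripts such as those of *FGFR2*, *CD44*, *CTNND1* and *ENAH*. GRHL and OVOL proteins hold epithelial genes such as *CDH1* active and oppose the factors of epithelial-mesenchymal transition (EMT), ZEB1 above all, while ELF3 and EHF are ETS factors largely restricted to epithelia. KLF5 is a factor of proliferating epithelium in the gastrointestinal tract and KLF4 of its differentiated cells. The deposited values give the amount of transcript of each gene and do not measure exon inclusion.

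Expression was given as RPKM, the reads of a gene scaled to each kilobase of merged exon and to a library of 1000000 assigned reads. Each value above 0 was a whole multiple of what 1 read is worth, so the reads behind it were recovered. The libraries held 16357085 to 29202046 assigned reads in HGC27-FN1 3′-UTR cells and 22332816 to 37037532 in HGC27-control cells, and 3 reads correspond to between 0.081 and 0.183 per 1000000 across the 6 libraries. Intervals on reads below are exact 95% Poisson intervals and cover counting error only. The *FN1* row itself stood at 0.777, 0.745 and 0.819 RPKM in HGC27-FN1 3′-UTR cells against 0.543, 0.474 and 0.532 in HGC27-control cells, a log2 fold change of 0.52 (adjusted p = 0.0292, limma). Bulk RNA cannot tell fewer cells that express a gene from less RNA per cell.

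Upstream sequence was matched by gene symbol in the RefSeq promoter table of GRCh38.p14, which runs from 250 bases before to 50 bases after a start site. It gave 7 windows for 5 of the 10 genes, *ELF3*, *GRHL1*, *KLF4*, *EHF* and *KLF5*. The stretches below belong to *ELF3* and *KLF5*, the genes with the clearest increases described further on. They show motifs that were absent from the windows of *GRHL1*, *KLF4* and *EHF*. The downstream window of *KLF5* did not hold TATAAA either. These motifs were picked for this contrast, and their part in the increases was not tested. Capitals mark the E-box CACCTG, the sequence that zinc finger repressors of the ZEB and SNAI families bind, and the TATA box TATAAA. All are on the plus strand of GRCh38.p14.
ELF3, chr1:202010455-202010484, E-box 120 bases before the start site: gaatatgcaaatCACCTGgggccaggagcc
ELF3, chr1:202010541-202010570, TATA box 34 bases before the start site: caggggacacacTATAAAgccctgagctca
KLF5, chr13:73054770-73054799, TATAAA 194 bases before the upstream start site: acacacttcatcTATAAAtcaacatctaaa
CACCTG, searched on both strands, occurred in 20.6% of all 35116 promoters of the table, and among the 7 windows in that of *ELF3* alone. TATAAA, searched on the strand of the gene, occurred in 7.33% of all promoters. AACCGG, which resembles one arm of the Grainyhead-like site, was searched on both strands, occurred in 7.23% of promoters and was in none of the 7 windows. CCAAT on either strand, found in 34.6% of promoters, was present in windows of *ELF3*, *GRHL1*, *EHF* and *KLF5*. The windows also differed in CpG content, with 52 CpG in that of *GRHL1*, 33 in that of *KLF4*, 37 in the downstream and 4 in the upstream window of *KLF5*, and 7 in that of *ELF3*, beside a median of 14 over all promoters. CACCC, a core of Krüppel-like sites found in 59.9% of promoters on either strand, was in windows of *ELF3*, *EHF* and *KLF5*, and CCGGAA, a core of ETS sites found in 17.2%, was in none of the 7. These matches describe the letters only, and binding was not measured.

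Both splicing regulators had more transcript in HGC27-FN1 3′-UTR cells, at levels that stayed well below 1 RPKM. *ESRP1* (chromosome 8) stood at 0.150, 0.126 and 0.169 RPKM in HGC27-FN1 3′-UTR replicates 1 to 3, from 12, 15 and 24 reads. In HGC27-control cells it stood at 0.0459, 0.0599 and 0.0498 RPKM, from 5, 9 and 9 reads. Every HGC27-FN1 3′-UTR library was above every control library, and the mean went from 0.0519 ± 0.00721 to 0.148 ± 0.0214 RPKM (SD, n = 3 each), a ratio of 2.86. On log2(RPKM + 0.1), the scale of the test, the log2 fold change was 0.71 ± 0.22 (SE), and the adjusted p of 0.0833 from limma missed the threshold of 0.05. The scale matters for such low values, since an added 0.1 RPKM pulls the ratio towards 1. With genes tested from 10 reads in all instead of by RPKM, the same difference had an adjusted p of 0.0206 in limma, and limma's voom on the recovered reads gave a log2 fold change of 1.46 (adjusted p = 0.00368).

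*ESRP2* (chromosome 16, 68229111 to 68238102, reverse strand) stood at 0.143, 0.228 and 0.357 RPKM in HGC27-FN1 3′-UTR cells, from 13, 31 and 58 reads. In HGC27-control cells it stood at 0.0724, 0.0933 and 0.0971 RPKM, from 9, 16 and 20 reads. The groups did not overlap, but the HGC27-FN1 3′-UTR libraries were spread over more than the gap between the groups, with replicate 1 lowest and replicate 3 highest. The means were 0.243 ± 0.108 and 0.0876 ± 0.0133 RPKM (SD, n = 3 each), a ratio of 2.77 that lay between 2.12 and 3.34 when any 1 library was left out. The log2 fold change of 0.82 ± 0.28 (SE) had an adjusted p of 0.106 in limma and of 0.0789 with the filter of 10 reads, and voom gave 1.44 (adjusted p = 0.00241). The increase of either *ESRP* gene was therefore past the threshold only under some of the fits. *ESRP2* had the higher mean of the paralogs in both groups, while in HGC27-FN1 3′-UTR replicate 1 *ESRP1* was the higher.

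Of the Grainyhead-like genes, *GRHL1* fell, and *GRHL2* had too few reads for the main test. *GRHL1* (chromosome 2, 9951693 to 10002277), which was the more abundant of the pair, was lower in HGC27-FN1 3′-UTR cells, at 0.431, 0.525 and 0.517 RPKM from 56, 102 and 120 reads. The control libraries held 0.794, 0.837 and 0.828 RPKM from 141, 205 and 244 reads. All 3 HGC27-FN1 3′-UTR values lay below all control values, and each group was tight. The mean fell from 0.820 ± 0.0226 to 0.491 ± 0.0524 RPKM (SD, n = 3 each), a ratio of 0.599 and a log2 fold change of -0.64 ± 0.11 (SE; adjusted p = 0.0186, limma). A block on replicate number gave an adjusted p of 0.0633 in limma, and leaving out 1 library gave values between 0.0462 and 0.0779, over 0.05 without any 1 of the 3 control replicates. The ratio itself moved little, between 0.578 and 0.636.

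*GRHL2* (chromosome 8), the member of the family best known for keeping carcinoma cells epithelial, was near the limit of detection. It was read 10, 5 and 13 times in HGC27-FN1 3′-UTR cells and 0, 4 and 3 times in HGC27-control cells, or 0.101, 0.0338 and 0.0735 RPKM against 0, 0.0214 and 0.0134. The floor of 3 reads in control replicate 1, where the count was 0, is 0.134 per 1000000 reads. The groups did not overlap, yet replicate 2 of the HGC27-FN1 3′-UTR cells, the lowest of its group, had only 1 read more than the highest control count. Summed over the libraries, reads per 1000000 were 5.15 times higher in HGC27-FN1 3′-UTR cells, with an exact counting interval of 2.20 to 13.98. The gene missed the RPKM filter of the main test. With the filter of 10 reads its log2 fold change was 0.59 (adjusted p = 0.0918, limma), and voom gave 2.39 (adjusted p = 0.0140).

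No difference beyond the spread of the libraries was found for either OVOL gene. *OVOL2* (chromosome 20, 17956979 to 18059188, reverse strand), a repressor of mesenchymal genes, was expressed at 4.47, 4.31 and 3.90 RPKM in HGC27-FN1 3′-UTR cells and at 4.26, 4.46 and 5.30 RPKM in HGC27-control cells. The ranges crossed, with replicate 3 lowest in one group and highest in the other. The log2 fold change was -0.14 (95% confidence interval -0.37 to 0.09; adjusted p = 0.394, limma). *OVOL1* (chromosome 11, 65787022 to 65797219) was read 2, 3 and 2 times in HGC27-FN1 3′-UTR cells and 3, 3 and 3 times in HGC27-control cells. These counts are at or under the floor of 3 reads and no fold is given. Summed over the libraries, the ratio of reads per 1000000 had an exact counting interval of 0.317 to 3.02. These counts cannot tell apart the ratios inside this range.

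*ELF3* (chromosome 1, 202007945 to 202017188), an ETS factor of glandular epithelium, showed the largest change among the 10 genes. It stood at 0.145, 0.245 and 0.376 RPKM in HGC27-FN1 3′-UTR replicates 1 to 3, from 17, 43 and 79 reads. In the control libraries it stood at 0.0311, 0.0181 and 0.0225 RPKM, from 5, 4 and 6 reads. The lowest HGC27-FN1 3′-UTR value was several times the highest control value. The mean went from 0.0239 ± 0.00665 to 0.255 ± 0.116 RPKM (SD, n = 3 each), a ratio of 10.7 that lay between 8.14 and 13.0 when any 1 library was left out. The log2 fold change of 1.47 ± 0.30 (SE; adjusted p = 0.0271, limma) made it the only one of the 10 genes past the criteria for differentially expressed genes (DEGs), which ask for a log2 fold change beyond 1 in either direction together with P under 0.05 before adjustment. All control values were under 0.1 RPKM, so *ELF3* entered this test through its HGC27-FN1 3′-UTR libraries alone. With the filter of 10 reads the log2 fold change was again 1.47 (adjusted p = 0.0167, limma). The size on this scale depends on the added constant, being 0.29 with 1 RPKM added and 2.89 with 0.01 RPKM added, and voom gave 3.38 (adjusted p = 2.7e-05). The adjusted p did not stay under 0.05 in limma under a block on replicate number (0.0768), nor without HGC27-FN1 3′-UTR replicate 2 (0.0832) or 3 (0.0742) or without control replicate 1 (0.0648), 2 (0.0913) or 3 (0.0749). Without HGC27-FN1 3′-UTR replicate 1 it was 0.0337.

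The values of *ELF3* were spread among the 3 HGC27-FN1 3′-UTR libraries. Per 1000000 reads, replicate 1 held 1.04 (0.605 to 1.66), replicate 2 held 1.76 (1.27 to 2.37) and replicate 3 held 2.71 (2.14 to 3.37). Between replicates 1 and 3 the mean chi-square per gene was 5.07 over 18711 genes, so counts differed beyond counting error on average. A mean over genes of all levels does not show what spread is usual at the level of *ELF3*. Replicate 3 is also the deepest and replicate 1 the shallowest of these libraries, and *ESRP2* had the same order. Among the 14 genes of epithelial structure past the criteria for DEGs, described below, 9 were highest in replicate 3, 4 in replicate 1 and 1 in replicate 2. Of the same genes, 5 were lowest in replicate 1, 6 in replicate 2 and 3 in replicate 3, so many did not share the order of *ELF3*. The part of library depth in this spread was not tested.

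*EHF* (chromosome 11, 34621093 to 34661057), the closest epithelial relative of *ELF3* among the 10, had 1 read in all 6 libraries together, in HGC27-FN1 3′-UTR replicate 3. The other 5 libraries held 0 reads, where the floor of 3 reads is 0.183 per 1000000 in the shallowest of them. No fold is given. *ELF3* was thus detected in every library while *EHF* was at or under the floor in all of them.

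Of the Krüppel-like pair, *KLF5* rose and *KLF4* did not pass the test. *KLF5* (chromosome 13, 73054976 to 73077542) was the most abundant of the 10 genes, with 649 to 1289 reads in each library. It stood at 12.8, 13.1 and 11.3 RPKM in HGC27-FN1 3′-UTR cells and at 7.46, 8.43 and 8.78 RPKM in HGC27-control cells. The groups were well apart. The means were 8.22 ± 0.681 RPKM in control and 12.4 ± 0.922 RPKM in HGC27-FN1 3′-UTR cells (SD, n = 3 each), a ratio of 1.51 and a log2 fold change of 0.59 ± 0.08 (SE; adjusted p = 0.00856, limma). The adjusted p stayed under 0.05 under the same block (0.0446, limma) and in all 6 fits that left out 1 library (0.0173 to 0.0384), and the ratio then lay between 1.44 and 1.57. *KLF5* did not reach the fold criterion for DEGs.

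*KLF4* (chromosome 9, 107484852 to 107490482, reverse strand) stood at 0.936, 0.839 and 0.898 RPKM in HGC27-FN1 3′-UTR cells and at 1.06, 0.949 and 1.06 RPKM in HGC27-control cells, from 56 to 144 reads. Every HGC27-FN1 3′-UTR value was below every control value, but the nearest pair, replicate 1 of one group and replicate 2 of the other, were almost level. The ratio was 0.869 and the log2 fold change -0.18 (95% confidence interval -0.41 to 0.04; adjusted p = 0.254, limma), which did not pass the threshold.

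**Figure D1:**
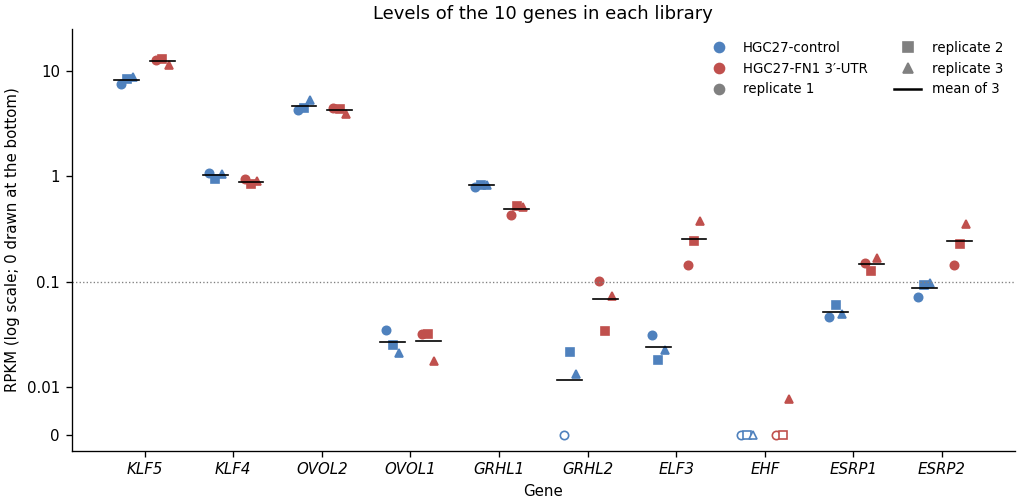
Expression of the 10 genes in each of the 6 libraries, in RPKM on a log axis with values of 0 drawn as open symbols at the bottom. Blue symbols are HGC27-control and red symbols HGC27-FN1 3′-UTR libraries, the shape gives the replicate, black bars are means of 3 and the dotted line marks 0.1 RPKM, the filter of the main test. *KLF5*, *ELF3*, *ESRP1*, *ESRP2* and *GRHL2* are higher in all 3 HGC27-FN1 3′-UTR libraries, *GRHL1* and *KLF4* lower, and *OVOL1*, *OVOL2* and *EHF* overlap.

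The plot of RPKM by library shows all 10 genes on one scale. By RPKM, a level per length, the 4 most abundant genes had the same order in both groups, *KLF5*, *OVOL2*, *KLF4* and *GRHL1*, and no neighbours in this order overlapped. In HGC27-FN1 3′-UTR cells these were followed by *ELF3*, *ESRP2* and *ESRP1*, whose neighbouring ranges overlapped, and then by *GRHL2*, *OVOL1* and *EHF*. In HGC27-control cells *ESRP2* and *ESRP1* came next, and *OVOL1*, *ELF3* and *GRHL2* followed with overlapping ranges. By their means, *ELF3* stood below both *ESRP* genes in HGC27-control cells and above both in HGC27-FN1 3′-UTR cells, where the ranges overlapped. In HGC27-control cells its order with *OVOL1* rested on 5, 4 and 6 reads against 3, 3 and 3. The 10 genes differed widely in level, and 7 of them stayed under 1 RPKM in every library, *KLF4* not being among these.

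For 7 of the 10 genes the 2 groups of libraries were fully separate, 5 higher and 2 lower in HGC27-FN1 3′-UTR cells, where 10.6% of all genes with any read were higher and 15.0% lower without overlap. Of the 10 genes, 7 passed the RPKM filter of the main test, and *GRHL2*, *OVOL1* and *EHF* did not. *ESRP1*, *ESRP2* and *ELF3* passed it through their HGC27-FN1 3′-UTR libraries alone, with all control values under 0.1 RPKM, so a count over the tested genes is no measure of the group of 10. With this limit, 1 gene was called higher and 0 lower at the criteria for DEGs, beside 1.65% and 0.815% of all 23299 tested genes. At an unadjusted p under 0.05 in limma 4 were higher and 1, *GRHL1*, lower, beside 12.0% and 17.6% of all tested genes. At an adjusted p under 0.05 in limma, *ELF3* and *KLF5* were higher and *GRHL1* was lower, beside 5.62% higher and 7.36% lower of all tested genes. With the filter of 10 reads, which 9 of the 10 genes passed, *ESRP1* joined the higher genes and *GRHL1* was again the only lower one (5.42% and 6.74% of all 25071 genes). In voom on the same genes, 5 were higher, *ESRP1*, *ESRP2*, *GRHL2*, *ELF3* and *KLF5*, and *GRHL1* alone was lower (8.60% and 12.2% of all genes). The median log2 fold change over all tested genes was -0.04.

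**Figure D2:**
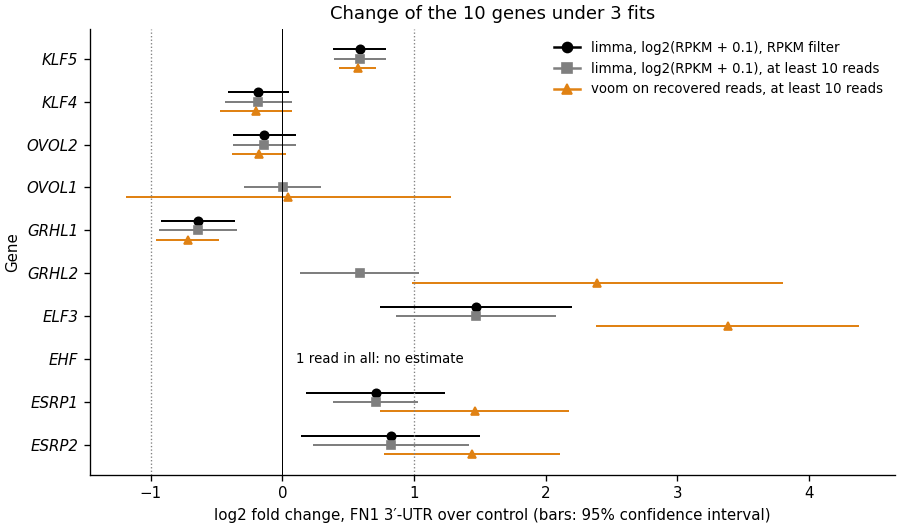
Log2 fold change of HGC27-FN1 3′-UTR over HGC27-control cells for the 10 genes under 3 fits, with 95% confidence intervals as bars. Black circles are limma on log2(RPKM + 0.1) with the RPKM filter, grey squares the same with at least 10 reads over the 6 libraries, and orange triangles voom on recovered reads. Intervals of *KLF5*, *ELF3*, *ESRP1* and *ESRP2* lie above 0 and those of *GRHL1* below 0 in all 3 fits, and for the low genes *ELF3*, *GRHL2*, *ESRP1* and *ESRP2* the read-based estimate is the larger.

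The plot of fold changes under 3 fits shows which values hang on the scale. For *KLF5*, *KLF4*, *OVOL2* and *GRHL1*, the 4 most abundant genes, the estimates nearly coincided, as 0.59 and 0.57 for *KLF5* and -0.64 and -0.72 for *GRHL1* in the main fit and voom. For *ELF3* and the *ESRP* genes direction was shared and size was not.

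**Figure D3:**
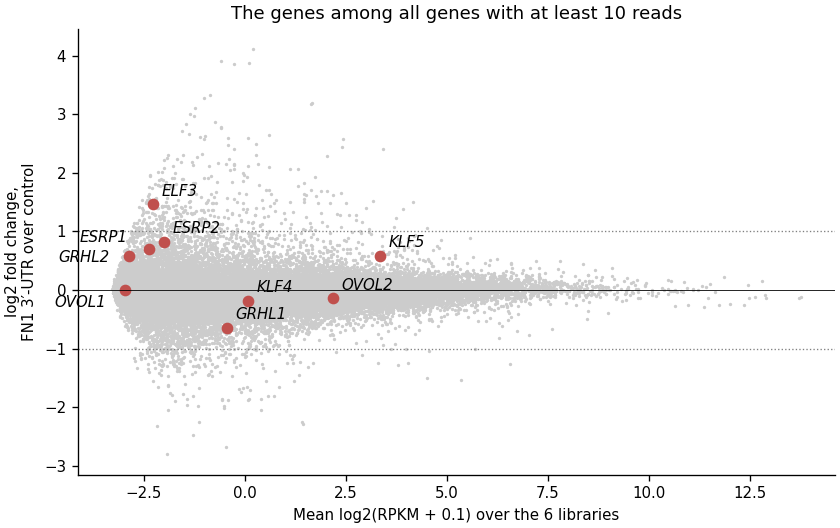
Log2 fold change against mean log2(RPKM + 0.1) for the 25071 genes with at least 10 reads over the 6 libraries (grey), with the 9 of the 10 genes that passed this filter in red; dotted lines mark a log2 fold change of 1 in either direction. *ELF3*, *ESRP1*, *ESRP2*, *GRHL2* and *OVOL1* lie at the low end of expression, *KLF5* and *OVOL2* in the middle of the axis, and *ELF3* alone lies beyond a dotted line.

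In the plot of all genes, the spread of fold changes is widest at low expression, where 5 of these genes lie. By distance of the centred log2 values over the 6 libraries, the gene nearest to *ELF3* was *MAL2*, which encodes a transport protein of polarised epithelia (distance 0.30 on the log2 scale). It stood at 0.160, 0.191 and 0.379 RPKM in HGC27-FN1 3′-UTR cells and at 0.0261, 0 and 0.0157 RPKM in HGC27-control cells. Its likeness to *ELF3* follows from how it was chosen. The second was *AL135787.1*, at a distance of 0.37.

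Relatives of the 10 genes were examined by family. Their counts below stand beside the shares over all tested genes given above, in limma 5.62% higher and 7.36% lower at an adjusted p under 0.05 and 12.0% and 17.6% at an unadjusted p under 0.05, and in voom 8.60% and 12.2% at an adjusted p under 0.05. Of 5 further members of the Grainyhead-like and OVO-like families, 3 were tested in limma, with 0 past the criteria for DEGs and 0 higher and 2 lower at an unadjusted p under 0.05. Their median log2 fold change was -0.21, which is that of *UBP1*, the one of these 3 past an adjusted p of 0.05 (adjusted p = 0.0284, limma). *GRHL3*, the third Grainyhead-like gene, had 77 reads in HGC27-FN1 3′-UTR and 81 in HGC27-control cells and a log2 fold change of 0.22 (adjusted p = 0.477, limma). *OVOL3* had 1 read against 12, the latter in control replicates 1 and 2 alone. *TFCP2*, picked out after its values were seen, had 23 reads against 1 and missed the RPKM filter. With the filter of 10 reads its log2 fold change was 0.89 (adjusted p = 0.0184, limma), and voom gave 3.79 (adjusted p = 0.00057). The gene is usually widely expressed, and its row was near 0 in all 6 libraries for a reason that was not tested, so these values are uncertain.

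Of 24 further ETS factors with a row, 17 were tested. The median log2 fold change was 0.06, 2 met the DEG criteria upwards and 0 downwards, and in limma 3 were higher and 1 lower past the adjusted threshold of 0.05. The 3 were the members of the PEA3 group, *ETV5*, *ETV4* and *ETV1*, which are known as targets and effectors of receptor tyrosine kinase signalling. *ETV5* stood at 1.84, 1.57 and 1.50 RPKM against 0.216, 0.341 and 0.340, a log2 fold change of 2.13 (adjusted p = 0.00168, limma). *ETV4* stood at 0.966, 1.10 and 0.921 RPKM against 0.199, 0.207 and 0.150, a log2 fold change of 1.95 (adjusted p = 0.00134, limma). The increase of *ETV1* was 0.97 (adjusted p = 0.00246, limma). *ELF5*, the neighbour of *EHF* on chromosome 11 and the other epithelial ETS gene there, had 1 read in each group. Of 14 further Krüppel-like factors, 10 were tested in limma and 0 passed either threshold or an unadjusted p under 0.05, with log2 fold changes from -0.26 to 0.16 and a median of 0.04; *KLF6* had 0.06 (adjusted p = 0.692, limma). In limma's voom, 1 of the 11 with at least 10 reads, *KLF12*, was lower at an adjusted p under 0.05.

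Among the other splicing regulators with roles in epithelial and mesenchymal splicing, 23 of 25 were tested and 0 met the DEG criteria. In limma 3 were higher and 0 lower at an adjusted p under 0.05, 5 and 3 at an unadjusted p under 0.05, and 5 and 5 in voom at an adjusted p under 0.05; the median log2 fold change was 0.05. *MBNL2* rose by 0.60 (adjusted p = 0.0149, limma), *MBNL1* by 0.32 (adjusted p = 0.00459) and *SRSF3* by 0.20 (adjusted p = 0.0248). *RBFOX2* and *QKI*, which promote mesenchymal exon patterns, were expressed far above the *ESRP* genes. *RBFOX2* stood at 11.9 to 12.9 RPKM against 11.5 to 11.9, with a log2 fold change of 0.08 (adjusted p = 0.252, limma), and *QKI* at 6.01 to 6.09 RPKM against 6.41 to 6.59, with -0.11 (adjusted p = 0.102, limma). *RBM47*, an epithelial RNA-binding protein, had a log2 fold change of 0.20 (adjusted p = 0.404, limma).

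Of 14 genes that hold exons regulated by ESRP proteins, 13 were tested, 0 met the DEG criteria, 2 were higher and 2 lower in limma past the adjusted threshold of 0.05 and equally at an unadjusted p under 0.05, and the median was -0.05. *CD44* rose by 0.42 (adjusted p = 0.0130, limma) and *FGFR2* by 0.32 (adjusted p = 0.0172, limma). *RALGPS2* changed by -0.39 (adjusted p = 0.0277, limma), and the other lower gene was *NUMB*, at -0.20 (adjusted p = 0.0289, limma). These are totals over all isoforms of a gene, and the share of epithelial exons within them was not analysed here.

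The epithelial programme downstream of such factors was represented by 40 genes of junctions, polarity and keratins. Of these, 34 were tested, 14 met the DEG criteria upwards and 0 downwards, and 18 were higher and 2 lower in limma past the adjusted threshold of 0.05. The median log2 fold change was 0.73, beside -0.04 over all tested genes. Genes low in control can pass the RPKM filter through their HGC27-FN1 3′-UTR libraries alone, which favours higher genes. With the filter of 10 reads, 39 were tested and the median was 0.64, beside -0.03 over all genes. The values that follow are those of the main fit. *KRT18* rose by 4.11 (adjusted p = 0.000557, limma), *KRT19* by 3.34 (adjusted p = 0.00146) and *EPCAM* by 2.59 (adjusted p = 0.00348), and *CDH1*, the E-cadherin gene, by 1.83 (adjusted p = 0.00316). The 2 lower genes were *CGN*, the tight junction gene of cingulin, at -0.46 (adjusted p = 0.00468, limma), and *DSP*, the desmoplakin gene, at -0.36 (adjusted p = 0.00758, limma), and both were more abundant than *CDH1*, *EPCAM*, *KRT18* and *KRT19*. At an unadjusted p under 0.05, 21 were higher and 5 lower. The count of 14 became 4 with 1 RPKM added before the log and 4 with a minimum mean RPKM of 1. This list was written with earlier results of these libraries known and is no independent evidence of its direction.

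Of 12 EMT transcription factors, 10 were tested and 0 passed the criteria for DEGs. In limma 3 were higher and 0 lower at an adjusted p under 0.05, 4 higher and 1 lower at an unadjusted p under 0.05, where all tested genes gave 5.62% and 7.36%, and 12.0% and 17.6%. The median was 0.12, and log2 fold changes ran from -0.76 to 0.87. The count called lower at the criteria for DEGs, 0, became 1 without HGC27-FN1 3′-UTR replicate 1. It was also 1 in voom with either filter, where the lowest log2 fold change with at least 10 reads was -1.19. *SNAI2* rose by 0.87 (adjusted p = 0.00718, limma), *TWIST1* by 0.46 (adjusted p = 0.0160) and *PRRX1* by 0.30 (adjusted p = 0.0200). *ZEB1*, the usual counterpart of the *ESRP*, *GRHL* and *OVOL* genes, stood at 15.1, 15.5 and 14.2 RPKM against 15.3, 14.6 and 14.4, a log2 fold change of 0.02 (adjusted p = 0.863, limma), and thus above each of the 10 genes in every library. Of 20 other epithelial lineage factors with a row, 13 were tested and 0 met the DEG criteria. In limma 2 were higher and 1 lower past the adjusted threshold of 0.05, 2 and 5 at an unadjusted p under 0.05, and the median was -0.34. In voom 19 had at least 10 reads, and 5 were higher and 4 lower at an adjusted p under 0.05. All genes gave 8.60% and 12.2% there. At the criteria for DEGs voom gave 4 higher and 1 lower, beside 748 and 400 of all 25071 genes. Log2 fold changes of these factors in voom ran from -1.07 to 3.07. *SOX9* rose by 0.72 (adjusted p = 0.0156, limma) and *TFAP2A* by 0.55 (adjusted p = 0.0158), and *GATA4* changed by -0.49 (adjusted p = 0.0110).

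**Figure D4:**
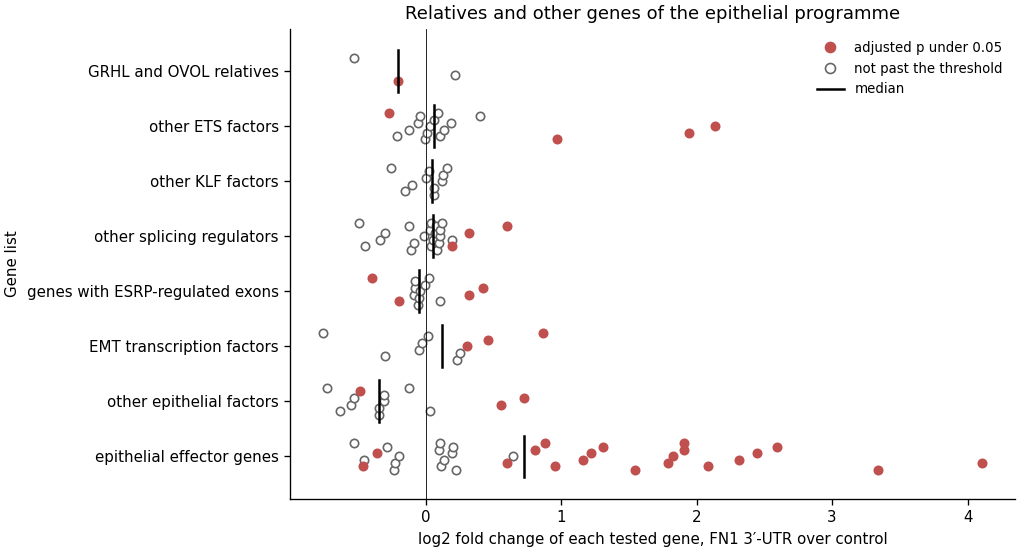
Log2 fold change of HGC27-FN1 3′-UTR over HGC27-control cells for each tested gene of 8 lists around the 10 genes, 1 point a gene; filled red points have an adjusted p under 0.05 in limma, open points do not, and black lines are medians. The medians of the families and regulators lie between -0.34 and 0.12, and that of the epithelial effector genes lies at 0.73.

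The plot of the 8 lists shows most points of the regulator lists close to 0, with *ETV5*, *ETV4* and *ETV1* apart from the other ETS genes, and the wide upper tail of the effector genes.

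The rows of some of the 10 genes share exon sequence with other rows. The libraries were made with a stranded kit, but whether strand was used in counting was not stated, so reads of antisense partners cannot be assigned with certainty. *ELF3* shares 664 exon bases with *RP11-510N19.5* on the same strand, which had 25 reads in HGC27-FN1 3′-UTR and 3 in HGC27-control cells. It shares 554 bases with *RP11-465N4.4* on the opposite strand, which had 24 and 21 reads and so did not show the contrast of *ELF3*. *ESRP2* shares 149 bases with *NFATC3* on the opposite strand and 35 with *RP11-96D1.11* on the same strand, with log2 fold changes of -0.23 and -0.28 (adjusted p = 0.0463 and 0.0405, limma). *OVOL2* shares 59 bases with *SNX5*, an abundant gene with a log2 fold change of 0.02, *OVOL1* shares 1044 with *RP11-770G2.5*, read 2 and 4 times, and *GRHL2* shares 50 with *KB-1562D12.1*, which had 0 reads. The part of shared reads in these values was not tested. *RNPEP*, the nearest gene to the left of *ELF3* at 1798 bases, had a log2 fold change of -0.15 (adjusted p = 0.0847, limma), and *DPY19L4*, 12237 bases from *ESRP1*, had -0.06 (adjusted p = 0.534, limma).

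Markers of other cell types were read beside these results. In the lists checked, *PTPRC* did not exceed 0.0164 RPKM and *CD3D* and *PECAM1* were at 0 in every library. These do not stand for their lists. Of 8 markers with a row in each, 4 leukocyte and 5 endothelial ones stayed under 0.1 RPKM everywhere, and the rest did not. The 8 leukocyte markers with a row summed to 3.09 to 3.30 RPKM in HGC27-FN1 3′-UTR and 3.48 to 4.14 in HGC27-control cells, with *NKG7* lower (log2 fold change -1.18; adjusted p = 0.0159, limma), and the 8 endothelial markers to 7.68 to 8.17 and 8.48 to 10.1. The 8 fibroblast markers summed to 178 to 181 and 123 to 140 RPKM, and 4 of them were higher at an adjusted p under 0.05 in limma, *LUM*, *COL1A1*, *COL3A1* and *THY1*. *VIM*, a mesenchymal filament gene, stood at 289 to 315 and 286 to 324 RPKM, far above *KRT8* at 10.8 to 14.6 and 2.02 to 2.29, so that in both groups the keratin transcript was well below that of the mesenchymal filament. The part of these markers in the values of the 10 genes was not tested.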

How the data were processed

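RNA-seq of 3 HGC27-FN1 3′-UTR and 3 HGC27-control libraries was used, with groups and replicate numbers from the sample labels. The authors prepared stranded mRNA libraries and deposited RPKM per gene and library on GRCh38, replicates kept apart. The submitters' processing notes name Trimmomatic 0.36, STAR 2.5.3a and featureCounts of Subread 1.5.1; annotation release, strand setting in counting and handling of duplicates were not given in the sources used here. The 10 genes and all lists were chosen with earlier results of these data known.

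RPKM multiplied by gene length was divided by the value of 1 read; 100% of values above 0 came out whole within 0.05 reads. The 23299 genes that reached 0.1 RPKM in at least 3 libraries were tested on log2(RPKM + 0.1) with limma 3.58.1 (R 4.3.3), using group alone in the model and empirical Bayes moderation with a variance trend, two-sided. DEGs had a log2 fold change beyond 1 in either direction and P under 0.05 without adjustment; adjustment was by Benjamini-Hochberg across the whole tested table. Lists were described by counts and medians without a set test. Named were the 10 genes, *FN1*, up to 3 genes of each list with an adjusted p under 0.05 and the largest change, certain relatives and partners set by name, overlapping and neighbouring genes within 200 kb, and the 2 genes nearest in profile to a DEG among the 10; not all neighbours are reported. Of the listed genes, *CD3E*, *MS4A1*, *CDX1*, *KLF17* and *SPIC* were without a row of that name.

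Alternatives were the pseudocount, filters, threshold, scaling, a replicate block, leaving out each library, and voom on recovered reads; voom with at least 10 reads was added after the data were seen. A count test was not the main test, since the deposited unit was RPKM. The fits were tested on simulated data. Spreadsheet software had turned 28 gene names into dates, and 2 names were repeated; none is named here. Promoters are RefSeq entries of GRCh38.p14 outside chromosome 8, used by their own coordinates. Figures and tables were made with Python 3.11.15, pandas 2.3.3, numpy 2.4.6, scipy 1.17.1 and matplotlib 3.10.9.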

Additional observations from a re-analysis of the deposited data

How the results depend on the processing

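For the 7 of the 10 genes in the main fit, no fitted log2 fold change turned its direction under the alternatives run. *GRHL2* and *OVOL1* were fitted under 3 settings each and *EHF* has no fitted value here; the ratio of mean RPKM of *OVOL1*, from counts at the floor, crossed 1 when single libraries were left out (0.902 to 1.18). The count of genes among the 10 called higher, 1, became 0 with a pseudocount of 1 and 0 with a mean RPKM of at least 1, 3 with a pseudocount of 0.01 and 3 in voom, 4 in voom with at least 10 reads, and 2 at an adjusted p under 0.05; leaving out 1 library gave 1 to 2, the latter without HGC27-FN1 3′-UTR replicate 1, where *ESRP2* reached 1.05. The count called lower, 0, became 1 at an adjusted p under 0.05. Over all tested genes, 385 higher and 190 lower calls became 64 and 11 with a pseudocount of 1, 95 and 38 with a mean RPKM of at least 1, 748 and 400 in voom with at least 10 reads, and 1310 and 1715 at an adjusted p under 0.05; the lower calls were 295 with a pseudocount of 0.01, 292 in voom, and 181 to 287 when 1 library was left out, most without HGC27-FN1 3′-UTR replicate 3. Among the lists, the higher calls of the 40 epithelial genes, 14, became 4 with a pseudocount of 1 and 4 with a mean RPKM of at least 1, those of the ETS factors, 2, became 1 and 0, and those of the other epithelial factors, 0, became 4 in voom with at least 10 reads. The cause of these shifts was not tested, apart from the pseudocount and filters, which by construction shrink or remove low genes. Same-numbered libraries did not deviate together (correlations of 0.0024, 0.021 and 0.010), so they were taken to share only a number; with the replicate block the calls at the criteria for DEGs were 1 higher among the 10 genes and 394 higher and 197 lower over all genes, and *ELF3* and *GRHL1* lost an adjusted p under 0.05. Fits without 1 library kept the genes of the full fit. At 3 reads a library, *OVOL1*, *EHF* and *GRHL2* are limited by depth.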
